A study of Mus musculus with 8 samples.

Results

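The list of H2A.X domains that sets mouse embryonic stem (ES) cells in 2i medium against ES cells in SRCi medium held 3760 domains. Its members were taken as all of these except 16 blocks whose signed score lies within 0.05 of 0, which left 3744 of the 25499 domains in the 6 lists of the series. A domain is a stretch of chromosome, on a grid of 1 kb, that the authors marked as enriched in one library of a pair. The mark gave 585 members to 2i and 3159 to SRCi. Each medium had 1 library and no replicate, so no difference has a replicate check and no p-value is given.

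Both libraries came from wild-type ES cells of the strain label 129S6/C57B6, grown on gelatin. The 2i cells were kept in a commercial 2i kit, whose contents the labels do not list. SRCi medium was a serum-free mixture with N2 and B27 supplements, 1000 units of LIF, 1.5 µM CGP77675 and 3 µM CHIR99021. Chromatin was cut with micrococcal nuclease without crosslinking, and H2A.X was precipitated from it with 0.5 µg of antibody per reaction. The other lists compare serum with 2i, 2i with PKCi, and, in medium with 15% serum and LIF, DNMT1 knockout (KO), TDG knockdown (KD) and TKO cells each with a control. PKCi medium has the base of SRCi medium with 5 µM Gö6976, an inhibitor of protein kinase C, and DNMT1 KO cells are of the strain label 129S6/C57B6. TDG and TKO cells and their wild-type controls carry the strain label 129/Ola, and TKO is the labels' own abbreviation. The serum and DNMT1 control libraries are known here only from the names of their lists.

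H2A.X is a variant of the core histone H2A, present in a share of nucleosomes, and its tail is phosphorylated around DNA double-strand breaks. 2i is the usual name of a medium that blocks the kinases MEK and GSK3 and holds ES cells in a uniform naive state with low DNA methylation. CHIR99021 inhibits GSK3, a negative regulator of Wnt signalling, and CGP77675 inhibits Src family kinases, which act downstream of growth factor receptors and adhesion. The comparison thus addresses whether a medium with a Src inhibitor places H2A.X as 2i does.

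Each domain has a signed score, which rises toward 2i and falls toward SRCi, and a second score summed over its 1 kb bins. Both are the authors' own values without a stated unit, and the direction rests on the order of the conditions in the list's name. The sides met at a score of about 10. The lowest 2i-side score was 10.1 and the next 10.7, while the highest SRCi-side score was 10.0 and the next 8.76. Of the SRCi-side domains, 3142 had scores above 0 and 17 below. An SRCi mark therefore mostly means a smaller lean toward 2i than elsewhere in the genome. Read depth and any scaling between the libraries are unknown.

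The list was not made alike for all chromosomes. On chromosomes 1 to 9, X, Y and M, the signed score times the length in kb was a whole number in 2076 of 2076 domains, within what 6 significant digits allow. On chromosomes 10 to 19 this held for 18 of 1684, or 1.07%. The first domain lay at position 1 on every chromosome from 1 to 9 and at 3000001 or later on chromosomes 10 to 19. Those on chromosomes 3, 4 and 6 were blocks of about 3 Mb with scores of 0 or nearly 0, here called blank. The 13 autosomal blocks left out lay on chromosomes 1 to 9. On the SRCi side the second score per kb had a median of 0.894 on chromosomes 1 to 9 without 6 and 8 and of 0.828 on chromosomes 10 to 19. Values for these groups are therefore given apart where they differ.

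On the 19 autosomes the 2i side held 559 domains and covered 176 Mb, or 7.11% of their 1 kb bins. The SRCi side held 3111 domains and covered 1855 Mb, or 75.0%. Chromosomes 6 and 8 were the exception on both sides. There the 2i side covered 60.3% and the SRCi side 1.62%, most of it a nearly blank chromosome start (0.462% without scores within 0.5 of 0), whereas on the other 17 autosomes the 2i side covered 0.289% and the SRCi side 84.4%. These shares are descriptions of a pair of libraries. The same split appeared in the other lists that name 2i, which may share its library. In the list of 2i and PKCi the 2i side covered 53.8% of chromosomes 6 and 8 and 0.282% of the other 17 autosomes. In that of serum and 2i it covered 66.2% and 4.82%. The exception is thus not particular to the comparison with SRCi.

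**Figure D1:**
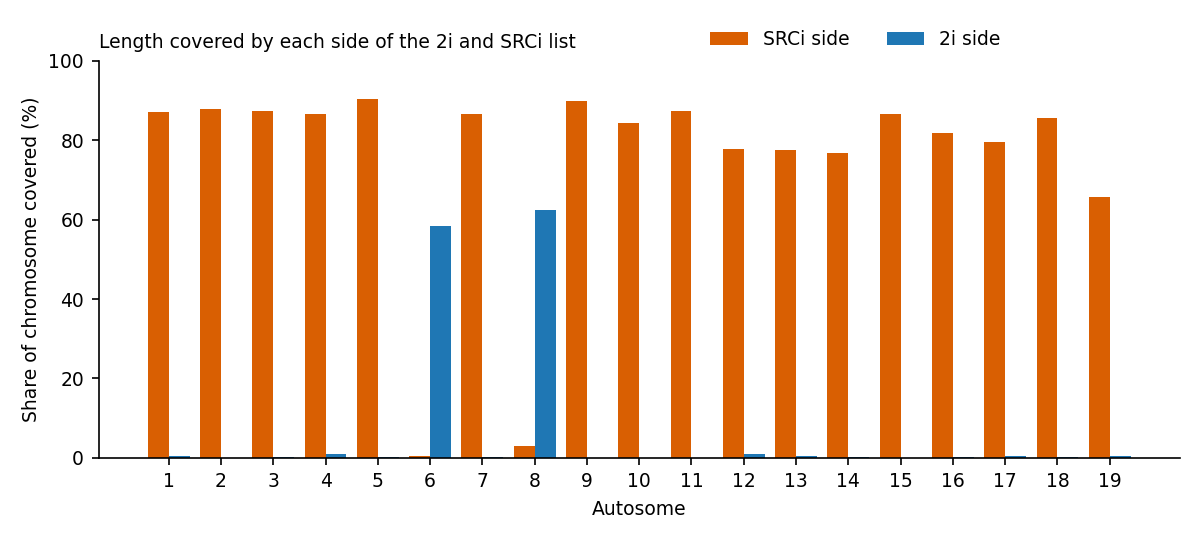
Share of each autosome (x axis) covered by SRCi-side domains (orange) and 2i-side domains (blue), in percent of its length, with 1 library per medium. The SRCi side covers 65.6% to 90.4% of 17 autosomes, and the 2i side 58.3% of chromosome 6 and 62.5% of chromosome 8.

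SRCi-side domains on the other 17 autosomes were broad. The 3086 domains had a median length of 339 kb, with quartiles of 144 and 781 kb. In windows of 5 Mb they covered 0% to 100%, with a median of 87.9%. Of 431 windows, 411 were covered by 50% or more, and the window at 0% lies in the block left out on chromosome 7. The 471 domains of at least 1102 kb held as much length as all the shorter ones. Neighbouring SRCi-side domains were parted by a median of 61 kb without a mark. The share of a chromosome on neither side, left-out blocks included, ran from 9.31% on chromosome 5 to 34.0% on chromosome 19.

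Among the larger autosomes, coverage by the SRCi side varied little. Chromosome 1 had 290 SRCi-side domains over 87.1% of its length, chromosome 2 had 257 over 87.9% and chromosome 3 had 224 over 87.3%. Chromosome 4 had 181 over 86.6%, chromosome 5 had 184 over 90.4%, chromosome 7 had 176 over 86.6% and chromosome 9 had 153 over 89.9%. All of these lie between 86.6% and 90.4%, and their blank first 3 Mb are counted in them, except on chromosomes 3 and 4, where the blank start was left out as a block of its own.

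Chromosomes 10 to 19 spread more widely. Chromosome 10 had 199 SRCi-side domains over 84.3% of its length, chromosome 11 had 167 over 87.3% and chromosome 12 had 190 over 77.7%. Chromosome 13 had 201 over 77.5%, chromosome 14 had 191 over 76.7% and chromosome 15 had 115 over 86.5%. Chromosomes 12, 13 and 14 thus stood lower than chromosomes 10, 11 and 15. Chromosome 16 had 158 over 81.8%, chromosome 17 had 145 over 79.6%, chromosome 18 had 119 over 85.7% and chromosome 19 had 136 over 65.6%. Chromosome 19 was the lowest of the 17 and also had the shortest SRCi-side domains, with a median of 207.5 kb against 224 to 414 kb on the others. Coverage by this side was 87.9% on chromosomes 1 to 9 without 6 and 8 and 80.8% on chromosomes 10 to 19. The part of the differing treatment of the chromosomes in this difference was not tested.

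The signed score on the SRCi side was nearly the same on these chromosomes. Its mean, weighted by length, ran from 5.66 on chromosome 9 to 6.37 on chromosome 19, with a median over chromosomes of 5.98. On chromosomes 1 to 9 without 6 and 8 the mean over all SRCi-side length was 5.92, and on chromosomes 10 to 19 it was 6.0. The scores thus did not part the groups of chromosomes that the coverage parted. By length, 37.2% of these domains scored from 5 to 6 and 49.6% from 6 to 7.

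The longest SRCi-side domains of the other 17 autosomes reached several Mb. The longest was chromosome 2, 160933001 to 173474000, at 12.5 Mb with a score of 4.99. Next came chromosome 7, 24621001 to 34674000, at 10.1 Mb (score 5.17), and chromosome 4, 136110001 to 144566000, at 8.46 Mb (score 5.01). Chromosome 5, 54534001 to 60612000, measured 6.08 Mb (score 6.62) and chromosome 15, 96280001 to 102308000, measured 6.03 Mb (score 4.63). Scores of 4 of these 5 lay below the lower quartile of the side, 5.54, and that of chromosome 5 lay above its upper quartile, 6.59.

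Lists that name 2i may share its library, so their values at these places are only set side by side. In the list of 2i and PKCi the 5 domains scored 3.91, 4.42, 3.91, 5.89 and 3.98 in the same order (2i minus PKCi). In the list of serum and 2i they scored -7.03, -7.44, -6.71, -15.4 and -7.36 (serum minus 2i). Against SRCi and against PKCi the domain on chromosome 5 had the largest score of the 5. Its serum value is not comparable with the other 4, since it rests on the 1.66% of the domain marked for 2i and the 0.609% marked for serum. The serum side covered 66.7% to 86.4% of the others.

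On chromosomes 6 and 8 the 2i side formed chains of long domains along the whole chromosome. Chromosome 6 had 261 of them over 87.2 Mb, with a median of 138 kb, and chromosome 8 had 183 over 82.3 Mb, with a median of 129 kb. Of these 444 domains, 45 were 1 Mb or longer and together held 94.4 Mb. On the other autosomes no 2i-side domain reached 1 Mb. Neighbouring 2i-side domains of chromosomes 6 and 8 were parted by a median of 137 kb without a mark, more than the 61 kb between SRCi-side domains elsewhere.

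The chains were not equally dense everywhere. In windows of 5 Mb the 2i side covered 29.6% to 92.1% of chromosome 6, with a median of 61.4% over 29 windows. On chromosome 8 it covered 4.04% to 100%, with a median of 63.0% over 26 windows. On chromosome 6 the fullest window was that from 15 to 20 Mb and the sparsest that from 50 to 55 Mb. On chromosome 8 the window from 100 to 105 Mb was fully covered, and that from 120 to 125 Mb was the sparsest. On the other 17 autosomes 365 of 431 windows had no 2i-side bin, and 3 had over 10%. The highest of these, at 26.4%, was on chromosome 4 from 145 to 150 Mb.

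**Figure D2:**
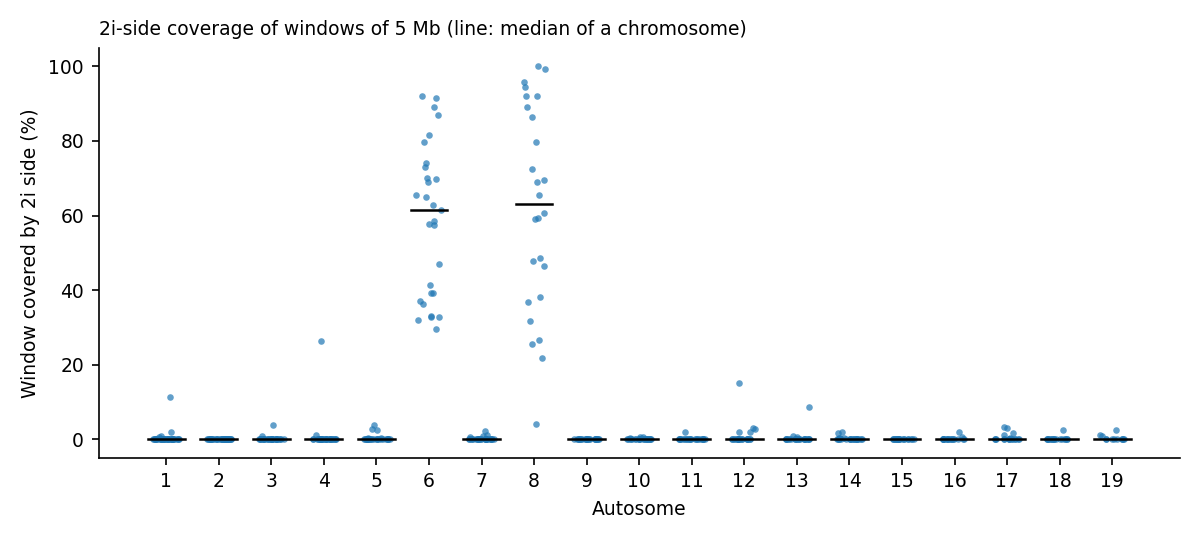
Percent of each 5 Mb window covered by the 2i side (y axis) for each autosome (x axis), with 1 point per window, spread sideways for legibility, and a line at the chromosome's median. Every window of chromosomes 6 and 8 holds 2i-side bins, from 4.04% to 100%, and on the other chromosomes no window exceeds 26.4%.

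The 5 longest 2i-side domains of this pair of chromosomes lay mostly on chromosome 8. They were chromosome 8, 98566001 to 106325000, at 7.76 Mb (score 15.1), and chromosome 8, 50585001 to 56209000, at 5.62 Mb (score 14.8). Then came chromosome 8, 67636001 to 72192000, at 4.56 Mb (score 16.2), chromosome 8, 63352001 to 67023000, at 3.67 Mb (score 15.6), and chromosome 6, 43942001 to 47326000, at 3.38 Mb (score 14.4). Their scores span less than 2 points around the side's median there, 15.4. In the list of 2i and PKCi the same stretches scored 14.3, 14.2, 15.1, 14.2 and 14, and in that of serum and 2i they scored -20.7, -20.7, -22.0, -21.2 and -20.1. Domains of both sides mostly leaned toward 2i in these lists, with medians on the other 17 autosomes of 6.13 on the SRCi side, 4.97 on the PKCi side and -7.59 on the serum side, so the sign alone says little.

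Over marked length, the score was higher on chromosomes 6 and 8 than on the other 17 autosomes. Over both sides, its mean weighted by length was 14.9 on chromosome 6 and 14.8 on chromosome 8, against 5.66 to 6.43 on the other 17 autosomes. The lowest, on chromosome 9, includes the nearly blank start of that chromosome. Every 2i-side score lies above every SRCi-side score, so these means largely follow from which side covers a chromosome. Stretches on neither side, left-out blocks included, did not enter them. They made up 41.3% of chromosome 6 and 34.5% of chromosome 8. Whether the score was higher along the whole of these chromosomes was therefore not tested. By length, 82.0% of the 2i-side domains of chromosomes 6 and 8 scored from 13 to 16. DNA input was not analysed here, so the score cannot be set against the number of copies of a chromosome.

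**Figure D3:**
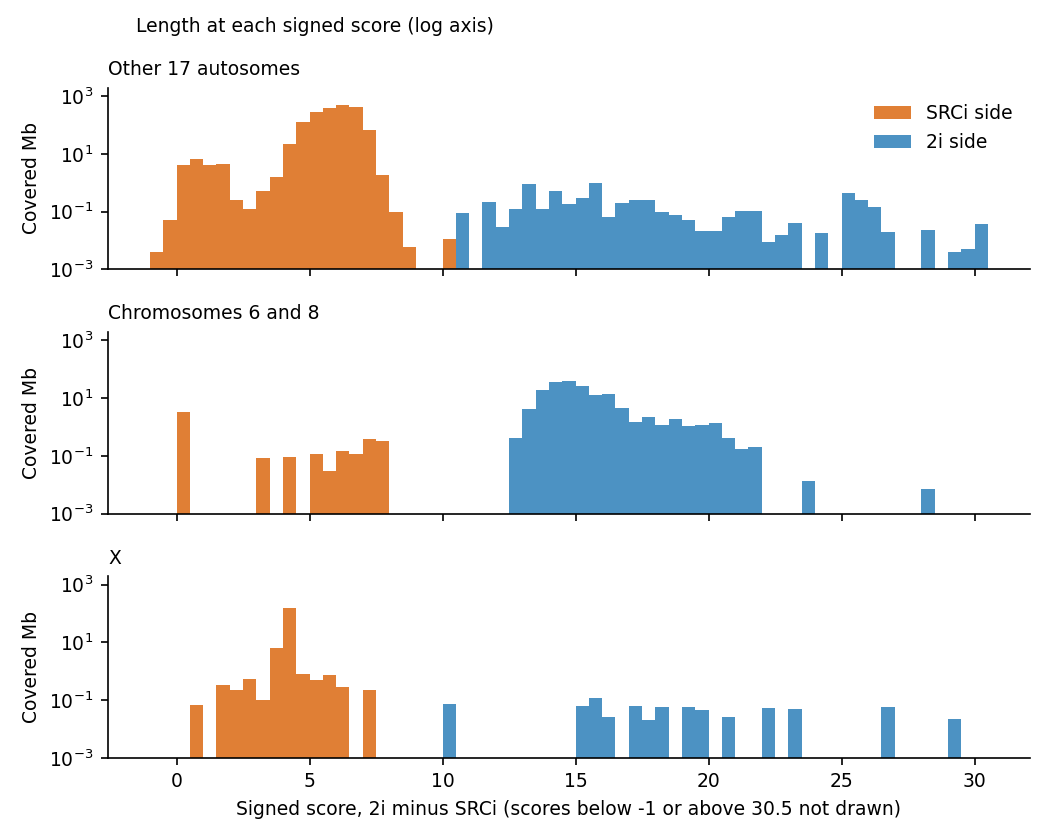
Covered length in Mb (y axis, log scale) at each signed score, 2i minus SRCi (x axis, steps of 0.5), for SRCi-side (orange) and 2i-side (blue) domains on the other 17 autosomes (top), chromosomes 6 and 8 (middle) and X (bottom). The bulk sits near 6 on the 17 autosomes, near 15 on chromosomes 6 and 8 and near 4 on X, and scores outside the range stated under the axis are not drawn.

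The highest 2i-side scores on chromosomes 6 and 8 lay next to blank stretches of chromosome 8. Chromosome 8, 19853001 to 20038000, scored 92.7, and chromosome 8, 19559001 to 19803000, scored 45.9. Between them lies a block of 50 kb with a score of 0.16, and the first of them ends where a block of 2001 kb with a score of 0 begins. In the list of 2i and PKCi these stretches scored 87.5 and 45.9, and in that of serum and 2i they scored -132.5 and -71.2. The next highest were short, at 37.0 for 2 kb on chromosome 8 (24206001 to 24208000), 28.1 for 7 kb on chromosome 6 (71230001 to 71237000) and 23.6 for 13 kb on chromosome 8 (98159001 to 98172000).

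Against these chains stood 25 SRCi-side domains, 10 on chromosome 6 and 15 on chromosome 8. Of these, 5 scored under 1 and were nearly blank. The first is chromosome 8, 1 to 3070000, which runs over the blank start of the chromosome and holds 3070 of the 4564 kb. The other 4 are blocks of 43 to 51 kb. The remaining 20 domains covered 1300 kb, were 31 to 156 kb long and scored 3.11 to 7.77, with a median of 6.50. The SRCi side of the other 17 autosomes had a median of 6.13. As the sides part at about 10, a score below that is fixed by the mark.

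Of these 20, 12 were gathered in 3 places, picked out after their positions were seen. The distal end of chromosome 8 held 7 of them within 122774001 to 126150000, which together measured 601 kb and scored 4.46 to 7.77. The longest was chromosome 8, 123266001 to 123422000, at 156 kb with a score of 7.51, followed by chromosome 8, 126060001 to 126150000, at 90 kb with a score of 4.46. That is the part of chromosome 8 where the 2i side was sparsest. On chromosome 6, 9 such domains covered 497 kb and scored 5.44 to 7.75. A pair lay at 72857001 to 72941000 and 73141001 to 73193000, with scores of 7.23 and 6.56. A group of 3 lay at 88129001 to 88194000, 88721001 to 88783000 and 88944001 to 89032000, with scores of 7.26, 6.97 and 7.75.

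At 11 of these 20 places, among them all 9 on chromosome 6, neither of the other lists that name 2i had a mark. The list of 2i and PKCi had a score at 7, from 2.07 to 6.41, and that of serum and 2i at 9, from -0.1 to -19.0 with a median of -6.77. The value of -19.0, at chromosome 8, 3753001 to 3786000, rests on 6.06% of that domain. Chromosome 8, 123266001 to 123422000, scored 5.97 (2i minus PKCi) and -7.84 (serum minus 2i, over the 30.8% that was marked). Chromosome 8, 126060001 to 126150000, scored 4.34 and -6.83.

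On the other 17 autosomes 115 2i-side domains covered 6.34 Mb. They were short, with a median of 27 kb and a maximum of 485 kb, and their scores were higher than on chromosomes 6 and 8, with a median of 19.4 against 15.4. The 2i mark begins at a score of about 10, and the SRCi side of these autosomes had a median of 6.13. Domains marked for 2i are thus outliers here by selection, and nothing is read from their higher scores. Of the 115, 22 were under 5 kb, and their median score was 33.2 against 18.0 for the longer ones. Chromosome 15 had none. Chromosome 11 had 1, chromosome 9 had 2, chromosomes 10 and 16 had 3 each, chromosomes 3 and 18 had 4 each, and chromosome 19 had 5. Chromosome 13 had 6, chromosomes 1, 2 and 7 had 7 each, chromosome 5 had 9 and chromosome 12 had 11. Chromosomes 14 and 17 had 15 each and chromosome 4 had 16. By share of the chromosome, chromosome 12 led with 1.02% (1242 kb), followed by chromosome 4 with 0.884% (1376 kb) and chromosome 17 with 0.562% (535 kb).

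**Figure D4:**
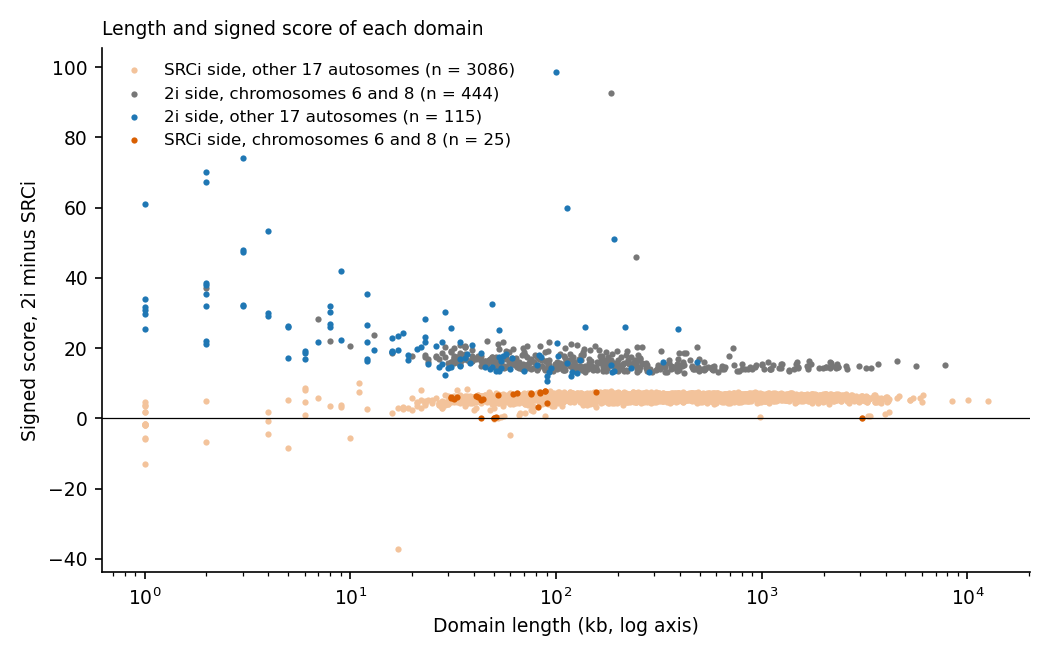
Length in kb (x axis, log scale) and signed score, 2i minus SRCi (y axis), of each autosomal domain, colored by side and by chromosome group as named in the key. The sides part near a score of 10, short 2i-side domains of the 17 autosomes (blue) reach 74.0 below 5 kb, and 17 SRCi-side domains lie below 0, the lowest at -37.1.

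Much of this length lay in a few groups. Joined where no more than 500 kb apart, the 115 domains formed 77 groups, and the 5 with the most length held 23 domains and 50.5% of the 6340 kb. The first spanned chromosome 4, 145021001 to 147170000, with 13 domains over 1318 kb that scored 13.2 to 21.7. In it lay chromosome 4, 146692001 to 147023000, at 331 kb (score 15.9), and chromosome 4, 145540001 to 145771000, at 231 kb (score 14.4). The second spanned chromosome 12, 115920001 to 117085000, with 3 domains over 759 kb, among them the longest of all 115, 116600001 to 117085000, at 485 kb (score 16.0). The third spanned chromosome 13, 12856001 to 13846000, with 4 domains over 429 kb, the longest of which was 13096001 to 13378000, at 282 kb (score 13.1). Weighted by length, the mean scores of these 3 groups were 14.8, 15.6 and 17.4, beside 15.2 for the 2i side on chromosomes 6 and 8. The other groups of the 5, on chromosomes 1 and 5, scored higher, at 25.4 and 54.4.

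The 5 longest of the 115 had these values in the other lists that name 2i. Chromosome 12, 116600001 to 117085000, scored 14.9 (2i minus PKCi) and -27.3 (serum minus 2i). For chromosome 1, 84953001 to 85344000, the values were 22.3 and -39.5, beside 25.4 against SRCi. For the 331 kb domain of chromosome 4 they were 14.9 and -33.4, for the 282 kb domain of chromosome 13 they were 12.4 and -21.3, and for the 231 kb domain of chromosome 4 they were 13.2 and -29.0. The value against PKCi rests on 70.9% of the domain of chromosome 12 and on 55.0% of that of chromosome 13. No gene is named here, because an annotation of mm9, the build of the files, was not used here.

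Some blank blocks again had 2i-side domains at their edges. On chromosome 1 a block of 2000 kb, 85344001 to 87344000, lies between 2i-side domains of 391 kb, which ends at its left edge, and 216 kb, 87344001 to 87560000, which begins at its right edge. Their scores were 25.4 and 25.9. On chromosome 5 a block of 49 kb, 15063001 to 15112000, lies between 14872001 to 15063000, with a score of 51.2, and 15112001 to 15225000, with a score of 59.9. Of the 13 autosomal blocks, 8 touched a 2i-side domain, with 12 such domains in all, of which 5 were on the other 17 autosomes. However, 7 of the 13 blocks lay on chromosomes 6 and 8, where the 2i side covers 60.3% of the bins. The other 6 lay on the 17 autosomes, and the longest of them, 7026 kb on chromosome 7, touched no 2i-side domain. The blocks bear the SRCi mark and domains of the same side never touched, so an SRCi-side stretch beside a block would have been joined to it and cannot appear here.

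The pair on chromosome 5 scored 51.2 and 59.9 against SRCi, 24.4 and 26.7 against PKCi, and -56.0 and -60.9 for serum minus 2i. The values against PKCi were the smallest of the 3 in size at both domains. With 1 library each, this difference has no error and was not tested.

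Chromosome starts also held 2i-side domains. Of the 115, 8 began within the first 3.5 Mb of 6 chromosomes. The highest score of the list was that of chromosome 11, 3000001 to 3100000, at 98.7, with 94.8 against PKCi and -143.3 for serum minus 2i. The others scored 14.5 to 25.2 and included chromosome 18, 3000001 to 3113000 (15.6), and chromosome 17, 3000001 to 3085000 (17.5). Starts and blocks within 500 kb together took in 16 of 115 domains (13.9%, Wilson 95% interval 8.75% to 21.4%) and 24.6% of their length. On the SRCi side they took in 38 of 3086 domains (1.23%, 0.898% to 1.69%) and 1.93% of the length. The intervals cover counting error only, and the joining of SRCi-side stretches to blocks lowers the second count.

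The other high scores of these 17 autosomes sat on very short domains. Chromosome 2, 98503001 to 98506000, scored 74.0 over 3 kb, chromosome 1, 135491001 to 135493000, scored 70.0 over 2 kb, and chromosome 12, 68159001 to 68161000, scored 67.3 over 2 kb. Against PKCi the first scored 63.3 and the third 165.4, over the 50% of it that was marked, while the second bore no mark. In all, 11 of the 115 scored 40 or more, on 8 chromosomes.

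Only 17 SRCi-side domains had a score below 0, where SRCi itself was the higher in the authors' score. They were singled out after their values were seen. Together they measured 161 kb, 9 of them were 1 kb long, and they lay on 5 chromosomes, with 7 on chromosome 13, 4 each on chromosomes 12 and 14 and 1 each on chromosomes 7 and 15. The one on chromosome 7 is a nearly blank block of 50 kb with a score of -0.08, so the other 16 lay on chromosomes 10 to 19.

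All 7 on chromosome 13 fell within 65630001 to 66707000. The lowest score of the list, -37.1, was that of 66519001 to 66536000, a stretch of 17 kb. Beside it, 66594001 to 66599000 scored -8.38 and 66647001 to 66707000, at 60 kb the longest of the 7, scored -4.62. At 66519001 to 66536000 the other lists scored 13.9 (2i minus PKCi) and -30.7 (serum minus 2i), and at 66594001 to 66599000 they scored 25.1 and -41.9. At both places 2i was thus the higher against PKCi and against serum and the lower against SRCi. The second score was low at these domains, at 0.410 and 0.276 per kb, against a median of 0.865 for the SRCi side of the 17 autosomes.

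The remaining domains below 0 were small. Those on chromosomes 12 and 14 were all 1 kb long and scored -1.61 to -5.89. Chromosome 15, 3003001 to 3013000, scored -5.53 over 10 kb at the start of its chromosome, with the low second score of 0.145 per kb, and gave 3.69 against PKCi and -8.29 for serum minus 2i.

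Lists without a 2i library allow an overlap to be given. Of the 115 2i-side domains of the 17 autosomes, 89 (77.4%, Wilson 95% interval 68.9% to 84.1%) met a domain on either side of the DNMT1, TDG or TKO lists by at least 1 base. These sides together cover 66.3% of the 17 autosomes, and 2557 of 3086 SRCi-side domains (82.9%), which are longer, met them, so nothing is read from that count. The single sides follow. DNMT1 maintains DNA methylation through replication, and TDG is a glycosylase that excises oxidised methylcytosine. The sides of these lists differ in size by over 100 times, so each overlap is given beside the share of the 17 autosomes that the other side covers.

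Each narrow side held a larger share of the 2i-side length than of the 17 autosomes. DNMT1 KO domains, which cover 3.65% of the 17 autosomes, were met by 70 of the 115 and took in 47.3% of their length. From the other list's view, 79 of 1312 DNMT1 KO domains (6.02%) were met. TDG control domains (TDG CT in the labels) cover 0.282%, and 51 of the 115 met them, with 32.6% of their length. In return 62 of 387 (16.0%) were met. TKO domains cover 0.405%, and 43 of the 115 met them, with 21.1% of their length, while 47 of 227 (20.7%) were met. The SRCi side covers 84.4% of the 17 autosomes. It met 891 of the DNMT1 KO domains (67.9%), 237 of TDG CT (61.2%) and 165 of TKO (72.7%). By length, it held 34.9%, 34.0% and 62.4% of these sides, against 3.75%, 33.4% and 15.1% on the 2i side. Of its 3086 domains, 741, 215 and 156 met them.

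Each broad side held a smaller share of the 2i-side length than of the 17 autosomes. Length on a narrow side cannot also lie on the broad side of its list, so these shares partly follow from those above. DNMT1 control domains cover 44.3% of the 17 autosomes and held 2.54% of the 2i-side length. TDG KD domains cover 25.3% and held 1.53%, and TKO control domains cover 25.9% and held 5.27%. By count, 17, 17 and 20 of the 115 met these sides. SRCi-side length, which fills most of the 17 autosomes, lay a little above the shares of the autosomes themselves, at 50% on DNMT1 control, 28.3% on TDG KD and 28.0% on TKO control. It held 1.51% on DNMT1 KO, 0.114% on TDG CT and 0.300% on TKO.

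**Figure D5:**
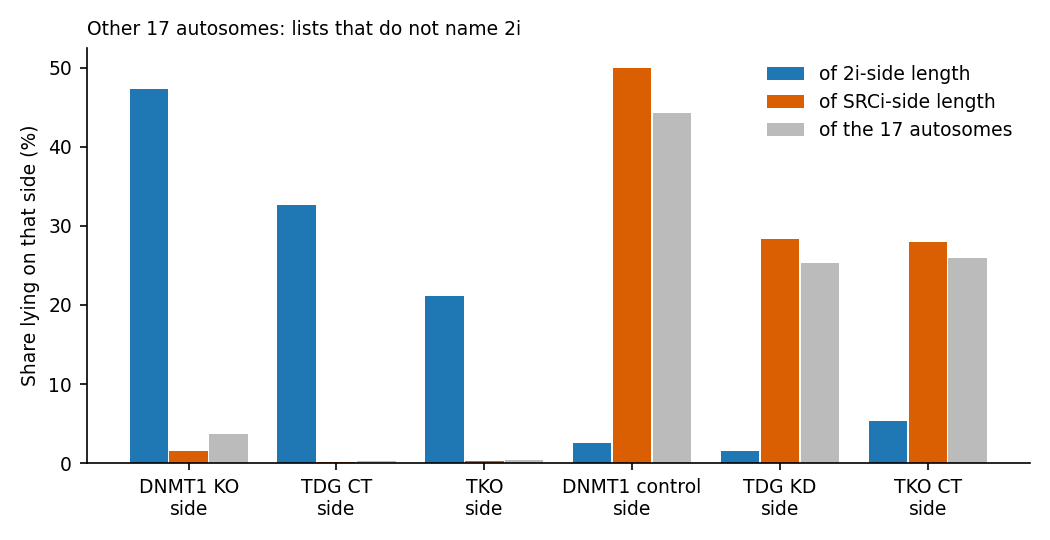
Share in percent (y axis) of the 2i-side length (blue), the SRCi-side length (orange) and all bins (grey) of the 17 autosomes other than 6 and 8 that lies on each side of the 3 lists without 2i (x axis). The 2i side has 47.3% on DNMT1 KO, 32.6% on TDG CT and 21.1% on TKO, where all bins have 3.65%, 0.282% and 0.405%.

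On chromosomes 6 and 8, an amount of 8186 kb, or 4.83%, of the 2i-side length lay on DNMT1 KO domains, which cover 3.08% of these chromosomes. TDG CT domains held 0.270% of it and cover 0.181%, and TKO domains held 0.384% and cover 0.351%. The 2i side fills 60.3% of these chromosomes, so its shares can exceed theirs only little. From the other lists' view, 150 of 158 DNMT1 KO domains met the 2i side, with 94.5% of their length on it. For TDG CT it was 30 of 39 domains and 89.8% of the length, and for TKO 34 of 53 domains and 65.9%. Whether these overlaps differ from those on the other 17 autosomes was not tested. No SRCi-side domain of chromosomes 6 and 8 met a DNMT1 KO, TDG CT or TKO domain, with 0 of 25 in each case (Wilson 95% interval up to 13.3%, counting error only). These narrow sides lie mostly on the 2i side, where no SRCi-side domain can be, so little was left to meet. Of the 25, 5 are also nearly blank and hold 3264 of the 4564 kb. Nothing is therefore read from these counts.

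On X the SRCi side was broader and its score lower than on the autosomes. Its 42 domains covered 161 Mb, or 96.6% of the chromosome, and 9 of them, each of 1 Mb or more, held 155 Mb. The longest was X, 32179001 to 69820000, at 37.6 Mb, with a score of 4.06, beside 3.5 for 2i minus PKCi and -6.97 for serum minus 2i. The mean score weighted by length was 4.08 on X, against 5.95 on the 17 autosomes. This was not particular to SRCi. The PKCi side covered 96.8% of X with a mean of 3.53, against 4.93 on the 17 autosomes. The serum side covered 91.4% of X with a mean of -6.88, against -7.51. As on chromosomes 6 and 8, the score cannot be set against the number of copies of the chromosome. The 2i side had 21 domains on X over 740 kb, with a median of 32 kb and a median score of 17.9. The longest, X, 122638001 to 122713000, measured 75 kb and scored 10.1, the lowest score of that side.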

How the data were processed

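H2A.X chromatin precipitated without crosslinking was sequenced in 8 samples, 1 library per condition. Per the submitters' processing notes, the aligner was Bowtie2 2.0.6 and the build mm9. For the domains, the caller, its settings and any scaling between libraries were not given in the sources used here. Per line, the deposited lists hold a domain, a mark for its side, and the signed score and second score of the authors, which have no stated unit and no header. The tools were Python 3.11.15, pandas 2.3.3 and statsmodels 0.14.6. Counts, covered 1 kb bins, lengths and length-weighted mean scores were computed per side and chromosome, and overlaps from 1 base up, with domains of the other lists within 0.05 of 0 left out as well. Chromosome lengths are the farthest ends in the 6 lists. Overlap, coverage and merging were checked on simulated data. No test between conditions is possible. The members, lists of places and comparisons were chosen with earlier results of these data known. Named regions are, per side and chromosome group, the 5 longest and the 5 of 2 kb or more with the highest score toward their side, with the longest of each side on X. Groups within 500 kb, domains beside blank blocks or chromosome starts, the SRCi-side domains of chromosomes 6 and 8 and those below 0 were chosen after their values were seen. Positions are mm9 and count from 1. Depth is unknown.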

Additional observations from a re-analysis of the deposited data

How the results depend on the processing

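Alternatives gave 44 values, of which 23 stayed within 1.5 times (counts) or within the Wilson 95% interval over 1 kb bins or domains (shares), and 21 moved. Those intervals are narrow, so small moves count. Keeping the 50% of domains of each side with the highest second score per kb lowered, by construction, the 2i-side domains to 293, the SRCi-side domains to 1580, 2i-side coverage to 33.3% of chromosomes 6 and 8 and 0.124% of the other 17 autosomes, and SRCi-side coverage to 1.32% and 52.9%. Without the first and last 5 Mb these coverages were 62.1%, 0.254%, 0.544% and 86.0%. With all blocks kept, SRCi-side coverage was 4.08% of chromosomes 6 and 8 and 85.1% of the others, and without scores within 0.5 of 0 it was 0.462% and 84.3%. Alternatives chosen after seeing the data left out the first 3.1 Mb (SRCi side 0.543% and 85.8%), left out chromosomes 6 and 8 (141 2i-side domains), or took chromosomes 1 to 9 without 6 and 8 (2i side 0.279%, SRCi side 87.9%) or 10 to 19 (0.301% and 80.8%). SRCi-side coverage of chromosomes 6 and 8 is thus mostly blank sequence. An overlap of 50% of the shorter domain gave 75.7% in place of 77.4%. No paired analysis was possible because 2i and SRCi have 1 library each. Genes at domains were not run, since an mm9 annotation was not used here. Depth limits could not be measured.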

Other observations

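On Y the 2i side held 4 domains over 96 kb, with scores of 16.3 to 52.6, and the SRCi side 6 domains over 2735 kb, with a length-weighted mean score of 2.86. Both Y blocks left out, together 13.0 Mb, had scores of 0. Mitochondrial DNA was 1 domain of 16 kb on the 2i side, with a score of 55.2. The whole-number property of the signed score was shared by the 3 lists that name 2i. On chromosomes 1 to 9, X, Y and M it held for 100% of domains in the lists of serum and 2i and of 2i and PKCi as well, and on chromosomes 10 to 19 for 1.25% and 1.34%. In the DNMT1, TDG and TKO lists it held for 0.882% to 2.97% of domains in both chromosome groups. The lists that name 2i and the other 3 were thus not scored alike.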
